A study of Arabidopsis thaliana with 6 samples.

Results

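The transcripts of 10 sugar carriers of the phloem and the vacuole were measured in wild-type (Col-0) *Arabidopsis thaliana* seedlings kept warm or given a long cold treatment. Members were taken by their AGI gene identifier from the gene table, which gave 9 of the 10 with a row among 18368 genes. They are *SUC1* (AT1G71880), *SUC2* (AT1G22710), *SWEET11* (AT3G48740), *SWEET12* (AT5G23660), *SWEET17* (AT4G15920), *TMT1* (AT1G20840), *TMT2* (AT4G35300), *ERD6* (AT1G08930) and *ERDL6* (AT1G75220). The transcript of *SWEET16* (AT3G16690) was not analysed here. Non-vernalized seedlings (0v, 3 libraries) were 11 days old and had been kept at 22 °C. Vernalized seedlings (4v, 3 libraries) were moved to 5 °C after 7 days at 22 °C and stayed there for 28 days, which made them 35 days old, so that age and temperature cannot be told apart. No transgene or mutant allele was present in either group, and replicates came from separate plates. Whole seedlings were used, so that fewer cells of a type and less RNA per cell cannot be told apart.

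Sucrose made in leaves is carried to roots and growing tips in the phloem. It leaves phloem parenchyma cells through SWEET uniporters of the plasma membrane and is then taken up into companion cells and sieve elements by SUC proton symporters, against its gradient. Inside each cell most sugar can be stored in the vacuole, into which TMT antiporters move glucose and sucrose in exchange for protons, while vacuolar SWEET proteins and carriers of the ERD6-like family let sugars pass the vacuolar membrane without that exchange or drive them out. Vacuolar sugar loading is known in this species for its response to cold.

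Values are counts divided by a size factor for each library, here called normalized counts. Dividing by the value of 1 read in a library returned whole numbers for 100% of entries (tolerance 0.05 of a read, with a small allowance that grew with the count), and the recovered totals ran from 1636687 to 23141488 reads. Of the libraries, 4 were shallow (1636687 to 1836717 reads) and 2 were deep, namely 0v replicate 3 and 4v replicate 2. One read was worth 2.84 to 3.41 normalized counts in the shallow libraries but 0.263 and 0.203 in the deep ones, so low values are coarse in the former. The cold marker *COR15A* stood at 12.9 to 27.3 normalized counts in 0v and at 9245 to 14080 in 4v, in accord with the labels of all 6 libraries. Differences were tested in limma on log2(normalized count + 4), two-sided, for the 16771 genes with a mean of at least 10, and a gene passed when its Benjamini-Hochberg adjusted p over those genes was under 0.05. A log2 difference below is 4v minus 0v on that scale, which understates changes of low genes.

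Among the 9 members with a row, all of which were tested, 2 rose in 4v (*SUC1* and *SUC2*), 2 fell (*ERD6* and *ERDL6*) and 5 did not pass. Over all genes tested, 6.46% passed as higher and 6.99% as lower. The groups did not overlap in 7 members, 5 with 4v above 0v and 2 with 4v below 0v, and over all genes tested those shares were 20.5% and 18.7%. The median log2 difference was 0.88 for the members, which is the value of *SWEET11* with 5 of 9 above 0, and 0.05 for all genes tested. The members were chosen with earlier results of these data known, so these shares and medians are no test of the list.

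**Figure D1:**
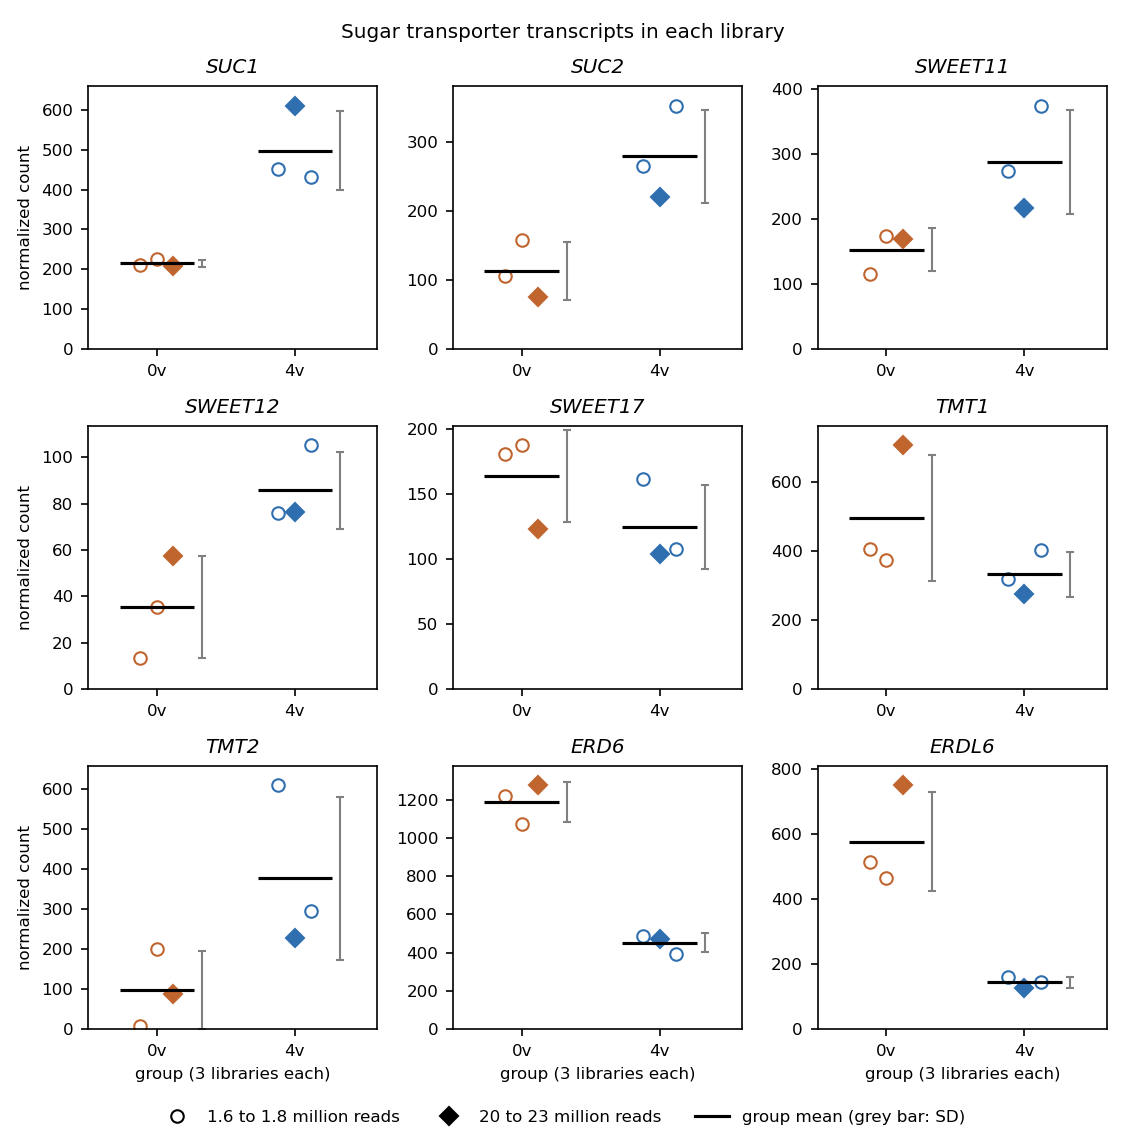
Normalized count of each transporter gene (linear axis from 0) in the 3 0v and 3 4v libraries, with group means as black lines and the SD as grey bars. Open circles are the 4 shallow libraries and filled diamonds the 2 deep ones, and the groups lie apart in every panel except *SWEET17* and *TMT1*.

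The promoters of 3 of the genes that passed are shown, a choice made after the search below had been seen: both sucrose symporters that rose carry the same 6 letters close to the start of the gene, and *ERD6*, which fell, is given beside them. Each line holds the 250 bases before the start in the RefSeq annotation of TAIR10.1, on the strand of the gene. Capitals mark overlapping matches, on both strands, to ACGTG, the core of sites for bZIP factors (together CACGTG, the G-box). The positions are chr1:27053780-27054029 (plus strand) for *SUC1*, chr1:8033157-8033406 (minus) for *SUC2* and chr1:2873050-2873299 (plus) for *ERD6*.
SUC1: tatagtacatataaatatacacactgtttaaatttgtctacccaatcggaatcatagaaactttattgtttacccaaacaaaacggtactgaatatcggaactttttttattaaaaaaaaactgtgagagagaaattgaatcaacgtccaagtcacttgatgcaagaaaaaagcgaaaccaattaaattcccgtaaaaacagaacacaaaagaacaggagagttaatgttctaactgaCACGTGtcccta
SUC2: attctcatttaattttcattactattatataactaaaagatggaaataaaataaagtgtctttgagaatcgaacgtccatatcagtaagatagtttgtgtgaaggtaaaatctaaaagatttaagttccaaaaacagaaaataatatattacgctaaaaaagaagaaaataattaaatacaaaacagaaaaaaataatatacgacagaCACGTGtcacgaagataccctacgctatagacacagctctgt
ERD6: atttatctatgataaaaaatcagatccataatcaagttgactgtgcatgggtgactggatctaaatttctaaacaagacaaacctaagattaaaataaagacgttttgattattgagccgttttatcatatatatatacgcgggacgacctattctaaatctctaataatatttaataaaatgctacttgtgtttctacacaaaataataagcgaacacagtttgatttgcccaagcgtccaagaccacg

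The letters CCGAC (bound by CBF factors), ACGTG and AAAATATCT (the evening element) were searched on both strands. The window ran from 250 bases before to 50 after the start, which is 300 bases. The search covered 9 members (all but *ERDL6*, and with *SWEET16*) and 27443 protein-coding genes. CACGTG was searched after the ACGTG matches had been seen. It lies 12 bases before the start of *SUC1* and 42 before that of *SUC2*, in no other member searched, in 7.68% of all promoters and in 8.91% of those of 18306 genes of the table. ACGTG was likewise present in *SUC1* and *SUC2* only among the members searched, and in 26.7% of all promoters. CCGAC was present in *TMT2*, at 133 bases before the start, and in 15.0% of all promoters, and AAAATATCT was in no member searched and in 2.82% of all promoters. A match describes these letters and is no measured binding site.

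The sucrose symporters were the members that rose. *SUC1*, a proton-coupled sucrose importer of the plasma membrane known from roots, pollen and other sink cells, lies at chromosome 1, 27054030 to 27056464, in 3 exons. It stood at 212, 226 and 208 normalized counts in 0v replicates 1, 2 and 3 and at 451, 610 and 432 in 4v replicates 1, 2 and 3. The 0v libraries were nearly alike and every 4v library was above them, the deep 4v library most. The means were 215 ± 9.57 and 498 ± 98.2 (SD, n = 3 each), a log2 difference of 1.18 (SE 0.169, 95% interval 0.78 to 1.58, limma adjusted p = 0.00821). The deep pair alone differed by 1.54 and the 4 shallow libraries by 0.999 (adjusted p = 0.0186), and the gene passed in all 20 alternative fits.

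*SUC2*, the symporter that loads sucrose into companion cells and whose loss stunts the plant, lies at chromosome 1, 8030587 to 8033156. It stood at 106, 158 and 75.3 normalized counts in 0v and at 265, 219 and 352 in 4v. The lowest 4v library, the deep one, was above the highest 0v library, and both groups spread more than for *SUC1*. The means were 113 ± 41.9 and 279 ± 67.5 (SD, n = 3 each), a log2 difference of 1.31 (SE 0.299, 95% interval 0.60 to 2.01, limma adjusted p = 0.0319), with 1.49 in the deep pair and 1.21 in the shallow libraries (adjusted p = 0.0467). The direction held in all 20 alternative fits, but the call did not in 6 of them: the adjusted p was 0.0864 without 0v replicate 1 and 0.0990, 0.0625 and 0.106 without 4v replicates 1, 2 and 3.

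Markers of the phloem were read beside *SUC2*, which is itself made in companion cells. Of 13 markers listed, 10 had a row and 9 were tested, and none passed in either direction, although 1 to 3 passed as higher in 6 of the 20 alternative fits. Their median log2 difference was 0.70, 7 of 9 were above 0, and none of the 10 was at 0 in any library. The summed level of the 10 was 387 to 475 normalized counts in 0v and 580 to 750 in 4v. *AHA3*, the companion cell proton pump that energizes sucrose loading, stood at 47.8, 29.0 and 158 in 0v and 222, 170 and 239 in 4v (log2 difference 1.70, adjusted p = 0.0803), and passed in the 4 shallow libraries alone (2.50, adjusted p = 0.0109) and without 0v replicate 3 (2.36, adjusted p = 0.00401). The deep pair alone differed by only 0.10 for *AHA3*. *APL*, a regulator of phloem identity, was at 7.89 ± 4.77 and 25.8 ± 5.02 (adjusted p = 0.0922), whereas the sieve element gene *SEOR1* was at 75.0 ± 43.6 and 37.6 ± 6.40 (SD, n = 3 each; adjusted p = 0.241). *SEOR2* went the other way from *SEOR1*, at 14.1 ± 4.73 and 45.8 ± 19.4 (log2 difference 1.43, limma adjusted p = 0.0585). It passed as higher in 2 alternative fits. The part of these markers in the difference of *SUC2* was not tested.

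**Figure D2:**
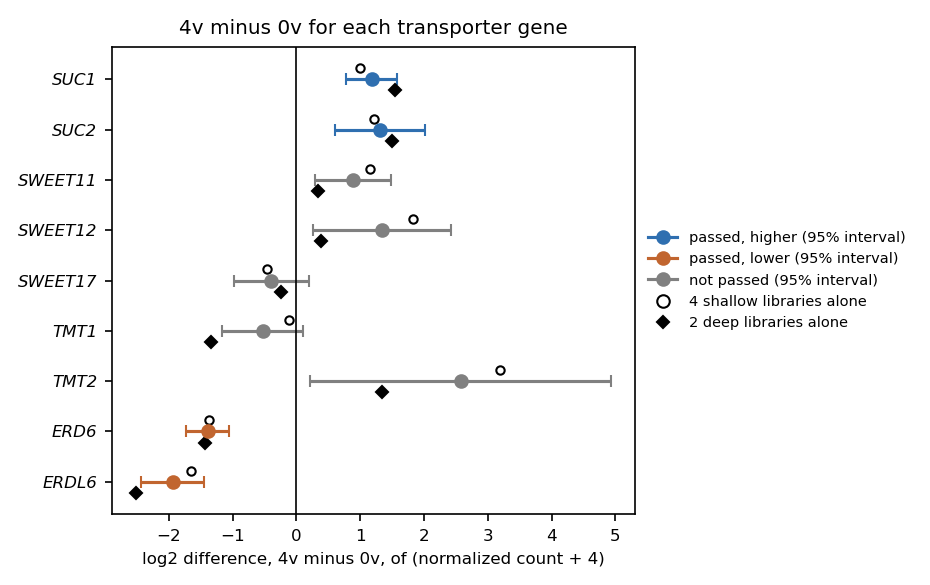
Log2 difference (4v minus 0v) of each transporter gene on the horizontal axis, with its 95% interval, blue where it passed as higher, orange as lower and grey where it did not pass. Small open circles are the 4 shallow libraries alone and black diamonds the 2 deep libraries alone, and the widest interval is that of *TMT2*, from 0.21 to 4.94.

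Neither plasma membrane SWEET gene passed, although every 4v library was above every 0v library for both. SWEET11 and SWEET12 are the paired sucrose uniporters of leaf phloem parenchyma, where they release sucrose towards the companion cells. *SWEET11* stood at 116, 174 and 170 normalized counts in 0v and at 274, 217 and 375 in 4v. The means were 153 ± 32.4 and 289 ± 80.0 (SD, n = 3 each), a log2 difference of 0.88 (SE 0.253, 95% interval 0.29 to 1.48, limma adjusted p = 0.0619). It was 0.34 in the deep pair and 1.15 in the shallow libraries (adjusted p = 0.0553). Of the 20 alternative fits it passed in 1, the one over genes with a mean of at least 50 (adjusted p = 0.0497).

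*SWEET12* was the lowest of the plasma membrane carriers, at 13.7, 35.5 and 57.6 normalized counts in 0v and 76.1, 76.2 and 105 in 4v. The 2 lowest values rest on 4 and 11 reads, while the deep 0v library, with 219 reads, was the highest of its group. The log2 difference was 1.34 (SE 0.460, 95% interval 0.26 to 2.42, limma adjusted p = 0.0958), with 0.38 in the deep pair and 1.82 in the shallow libraries (adjusted p = 0.0775). It passed in 1 of the 20 alternative fits, the one without 0v replicate 3 (1.75, adjusted p = 0.0322), and the difference was 0.85 without 0v replicate 1 (adjusted p = 0.146) and 0.64 in limma-voom (adjusted p = 0.158). For both SWEET genes the deep pair thus gave a smaller difference than the shallow libraries.

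On the vacuolar side, *TMT2* had the highest log2 difference of all members and the widest interval. TMT1 and TMT2 are the antiporters that fill the vacuole with sugar. *TMT2* stood at 6.83, 200 and 87.4 normalized counts in 0v and at 609, 228 and 295 in 4v. The 0v values spread 29.3-fold, the lowest resting on 2 reads in replicate 1, where *SUC1* had 62 reads. The means were 98.1 ± 97.0 and 377 ± 204 (SD, n = 3 each), and the log2 difference was 2.57 (SE 1.0, limma adjusted p = 0.131). Without 0v replicate 1 it was 1.35 (adjusted p = 0.157), close to the 1.34 of the deep pair, and of the alternative fits only limma-voom on the recovered reads passed it (adjusted p = 0.0492).

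*TMT1* went the other way without passing. It stood at 406, 374 and 705 normalized counts in 0v and at 320, 276 and 403 in 4v, so that the groups overlapped. The log2 difference was -0.53 (SE 0.269, 95% interval -1.16 to 0.11, limma adjusted p = 0.226). Most of it lay in the deep pair, which differed by -1.34, against -0.12 in the shallow libraries (adjusted p = 0.704).

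Reads of the TMT genes may be shared with genes on the opposite strand, and the sources used here do not give whether counting used strand. *TMT2* (chromosome 4, 16795775 to 16799823, minus strand) overlaps AT4G35295 and AT4G09145 on the plus strand, and 6.07% of the 31-base runs of its transcripts occur in other transcripts too. *TMT1* (chromosome 1, 7244939 to 7248494, minus strand) overlaps AT1G20830 and AT1G05607, with 0.386% of its runs shared. The coding sequences of *TMT1* and *TMT2* were identical at 70.5% of aligned bases, with 1 run of 31 bases in common.

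*SWEET17*, for a vacuolar uniporter known for fructose, had the smallest log2 difference of the members. It stood at 181, 187 and 123 normalized counts in 0v and at 161, 104 and 108 in 4v, and the groups overlapped. The log2 difference was -0.39 (SE 0.250, 95% interval -0.98 to 0.20, limma adjusted p = 0.326), and no alternative fit passed it. The interval reaches from a fall of nearly 1 log2 unit to a slight rise.

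Both carriers of the ERD6 type fell, and both were among the most abundant members in 0v. *ERD6*, first described as an early dehydration-responsive gene and coding for a sugar transporter-like protein, lies at chromosome 1, 2873300 to 2877270, in 17 exons. It stood at 1219, 1071 and 1275 normalized counts in 0v and at 487, 471 and 395 in 4v. The groups lay far apart and each was tight. The means were 1188 ± 105 and 451 ± 49.5 (SD, n = 3 each), a log2 difference of -1.39 (SE 0.143, 95% interval -1.73 to -1.05, limma adjusted p = 0.00350) which is 2.62-fold lower on the fitted scale. The deep pair differed by -1.43 and the shallow libraries by -1.37 (adjusted p = 0.0107).

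*ERDL6*, an exporter of glucose from the vacuole, fell the most of the members. It lies at chromosome 1, 28229026 to 28233134, also in 17 exons. It stood at 515, 465 and 750 normalized counts in 0v and at 161, 128 and 145 in 4v. Every 4v library was below every 0v library, and the deep 0v library was the highest of all. The means were 577 ± 153 and 145 ± 16.8 (SD, n = 3 each), a log2 difference of -1.94 (SE 0.210, 95% interval -2.43 to -1.45, limma adjusted p = 0.00409) which is 3.84-fold lower on the fitted scale. It was -2.52 in the deep pair and -1.65 in the shallow libraries (adjusted p = 0.00764). *ERD6* and *ERDL6* each passed in all 20 alternative fits.

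Near relatives and neighbours of the fallen genes were given beside them, since they may share reads. *ERDL6* overlaps AT1G75210 on the opposite strand and shares 1.92% of its 31-base runs with other transcripts. Its closest relative AT1G19450, identical at 85.7% of aligned coding bases, had means of 202 in 0v and 341 in 4v and did not pass (log2 difference 0.87, limma adjusted p = 0.195). *ERD6* shares no run of 31 bases with another gene. Of its tandem neighbours, *ESL1* (AT1G08920) stood at 92.2, 90.3 and 88.2 in 0v and 97.5, 203 and 131 in 4v (adjusted p = 0.187), and AT1G08900 had a log2 difference of -0.66 (adjusted p = 0.259). AT1G08890 stood at 58.0, 64.5 and 297 in 0v and 384, 342 and 381 in 4v (log2 difference 1.78, adjusted p = 0.0801), with the deep 0v library near the 4v values and far above the 2 shallow ones. It passed in the 4 shallow libraries alone (2.57, adjusted p = 0.00325) and without 0v replicate 3 (2.51, adjusted p = 0.000495). *SUC1* shares 0.872% of its runs with its neighbour *SUC5* (AT1G71890), and *SUC2* shares 0.198% with it, whereas *SUC5* itself was not analysed here.

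**Figure D3:**
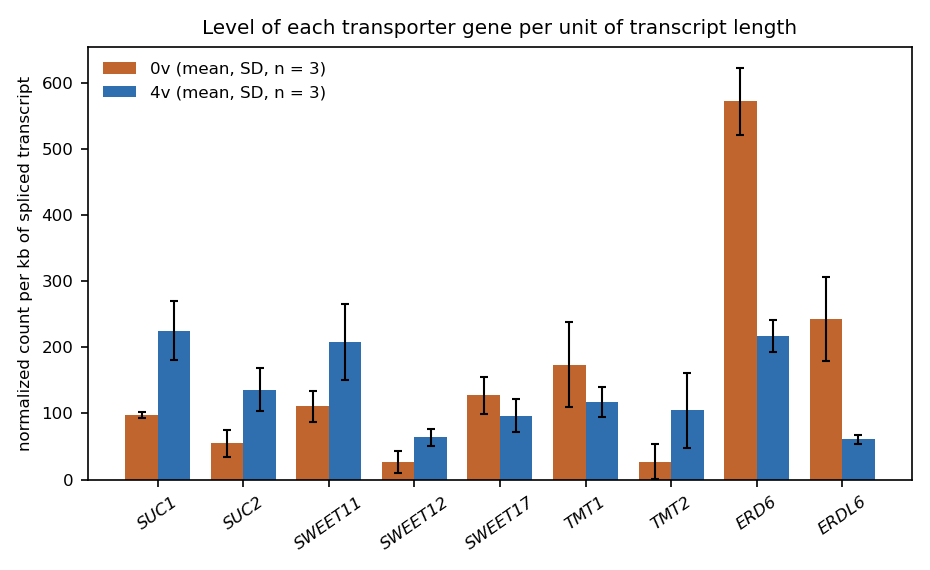
Normalized count per kb of the longest spliced transcript (linear axis from 0) of each gene, as mean bars with the SD over 3 libraries, orange for 0v and blue for 4v. *ERD6* stands highest in 0v at 572, and *SUC1*, *ERD6* and *SWEET11* stand close together in 4v at 225, 217 and 208.

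The order of the levels differed between the groups. Compared per kb of spliced transcript, *ERD6* led in 0v at 572 ± 50.7 (SD, n = 3), and no library of the next gene, *ERDL6* at 243 ± 64.1, reached it. *TMT1* (174), *SWEET17* (127), *SWEET11* (111) and *SUC1* (97.3) followed, each overlapping its neighbour in the order. *SUC2* at 55.2 was below every library of *SUC1*, and *TMT2* (27.2) and *SWEET12* (26.4) came last. In 4v the order began with *SUC1* at 225 ± 44.4, *ERD6* at 217 ± 23.8 and *SWEET11* at 208 ± 57.7, which overlapped. *SUC2* (136), *TMT1* (117), *TMT2* (105) and *SWEET17* (96.6) overlapped in turn. *SWEET12* (63.7) and *ERDL6* (60.9), which overlapped each other, were last, so that *ERDL6* moved from place 2 to place 9. These levels per kb depend on the transcript taken for each gene.

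Ratios within a library compare partners largely free of the scaling between libraries. Of 5 pairs, 4 could be formed, since *SWEET17* lacked its partner, and with 3 libraries against 3 the exact permutation test (two-sided) cannot go below 0.10. The log2 ratio of *SUC1* to *SUC2* was 0.97 ± 0.457 in 0v and 0.84 ± 0.589 in 4v (SD, n = 3 each; difference -0.13, exact p = 0.80, adjusted over 4 pairs 0.80). That of *SWEET11* to *SWEET12* was 2.15 ± 0.635 and 1.68 ± 0.193 (difference -0.46, exact p = 0.30, adjusted 0.40). The groups overlapped in both ratios. The sign of the first turned when 0v replicate 3 (0.10) or 4v replicate 3 (0.14) was left out.

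The other pairs did not overlap between the groups. The log2 ratio of *TMT1* to *TMT2* was 5.24, 0.89 and 2.96 in 0v and -0.92, 0.27 and 0.44 in 4v, a difference of -3.10 (exact p = 0.10, the smallest possible, adjusted 0.20). Without 0v replicate 1 it was -1.99. *TMT1* thus had the higher count of the pair in every 0v library, and in 4v replicate 1 *TMT2* had. The log2 ratio of *ERD6* to *ERDL6* was 1.23, 1.20 and 0.76 in 0v and 1.57, 1.85 and 1.42 in 4v, a difference of 0.55 (exact p = 0.10, adjusted 0.20), with 0.28 in the shallow libraries alone and 0.40 without 0v replicate 3.

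**Figure D4:**
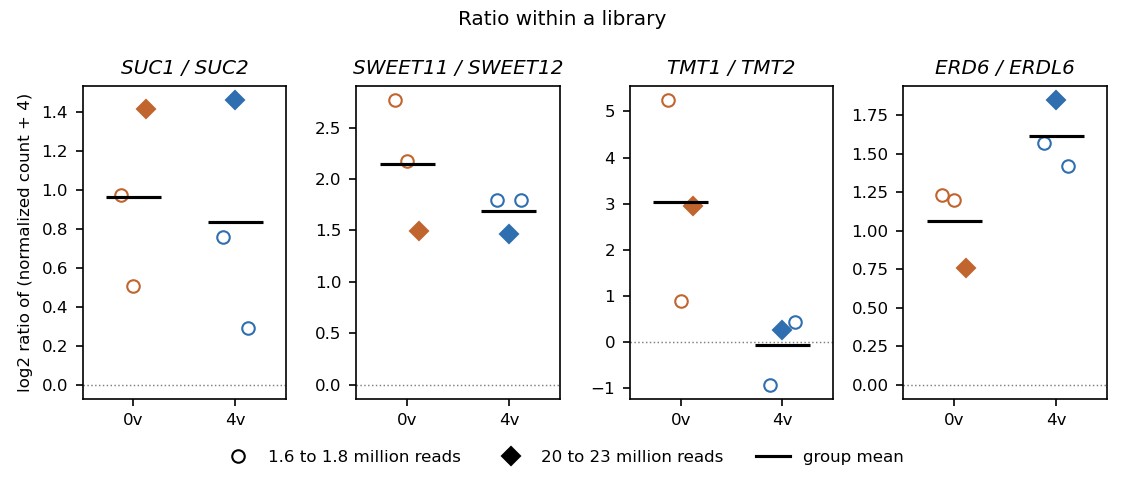
Log2 ratio of (normalized count + 4) within each library for 4 pairs of related genes, with group means as black lines, open circles for shallow and filled diamonds for deep libraries, and a dotted line at equal counts. Groups overlap for *SUC1*/*SUC2* and *SWEET11*/*SWEET12* and lie apart for *TMT1*/*TMT2* and *ERD6*/*ERDL6*.

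Other carriers of the same families were read from lists of known genes. Of 7 other *SUC* genes 2 had a row, and *SUC4*, a sucrose exporter of the vacuolar membrane, rose from 23.9, 19.4 and 25.0 normalized counts to 42.6, 62.0 and 65.3 (log2 difference 1.17, limma adjusted p = 0.0415). That call was lost when any single library was left out (adjusted p 0.0507 to 0.146). In all it was lost in 11 of the 19 alternative fits that tested *SUC4*. These included DESeq2 (adjusted p = 0.0788) and the 4 shallow libraries alone (limma adjusted p = 0.154). Its values in 0v replicates 1 and 2 rest on 7 and 6 reads. *SUC3* was at 91.5 ± 5.77 and 105 ± 25.7 (SD, n = 3 each; adjusted p = 0.659). Of 13 other *SWEET* genes 4 had a row, and *SWEET13*, a sucrose uniporter of the same clade as *SWEET11* and *SWEET12*, had 0 reads in all 0v libraries and 21.3, 42.8 and 36.9 normalized counts in 4v. The 4v mean of 33.7 was 49.4 times a floor of 0.681 (3 reads over the 0v group), without allowance for the spread in 4v. *SWEET13* had a log2 difference of 3.19 (SE 0.523, limma adjusted p = 0.0127). It did not pass without 4v replicate 2 (adjusted p = 0.0746) or without 4v replicate 3, nor in the 4 shallow libraries alone (adjusted p = 0.0755). The 3 others did not pass. *SWEET1* had means of 41.2 and 89.6 (limma adjusted p = 0.0578) and *SWEET2* of 194 and 102 (adjusted p = 0.0629) in 0v and 4v. *SWEET15* had means of 41.9 and 4.39 (adjusted p = 0.177), with overlap. In alternative fits *SWEET1* passed as higher in 3, *SWEET2* as lower in 4 and *SWEET15* as lower in 2. The list median was 0.07.

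The remaining vacuolar and ERD6-like carriers did not pass over all 6 libraries. The vacuolar glucose carriers *VGT1* and *VGT2* had log2 differences of 0.61 and 0.58 (limma adjusted p = 0.217 and 0.144), and *VGT1* passed without 0v replicate 3 (0.92, adjusted p = 0.0386) and *VGT2* in limma-voom (0.82, adjusted p = 0.0308). Of 17 other ERD6-like genes 13 were tested and none passed, with log2 differences from -1.35 to 2.07 and a median of -0.12. In 5 of the 20 alternative fits 1 or 2 of them passed: AT1G08890 as above, AT4G04750 as higher in limma-voom (adjusted p = 0.00923), and AT3G05165 as lower in 4 fits, which included the 4 shallow libraries alone (-1.21, adjusted p = 0.0126) and the fit without 0v replicate 3 (-1.09, adjusted p = 0.00812). The vacuolar proton pumps supply the gradient that TMT antiporters use, and of 19 genes, all tested, none rose and 2 fell: *VHA-B1* (log2 difference -0.55, adjusted p = 0.0346) and *VHA-C3* (-0.53, adjusted p = 0.0333). Leaving out any library other than 0v replicate 3 ended both calls (adjusted p up to 0.126 and 0.127), as did taking the 4 shallow libraries alone. Under quantile normalization 0 of the list passed as lower and 2 as higher. The pyrophosphatase *AVP1* was at 2948 ± 467 and 2932 ± 238 (SD, n = 3 each), and the list median was -0.02.

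Hexose importers of the plasma membrane had the lowest list median, -1.86 over the 6 *STP* genes tested of 14 listed. *STP1*, a proton-coupled importer of glucose, fell from 5878, 3042 and 5768 normalized counts in 0v to 429, 300 and 474 in 4v (log2 difference -3.56, SE 0.299, limma adjusted p = 0.00197) and passed in all 20 alternative fits. *STP14*, a galactose carrier, fell from 246, 174 and 347 to 24.4, 31.6 and 99.4 (log2 difference -2.41, adjusted p = 0.0246), a call that was lost (adjusted p up to 0.0810) when 0v replicate 1 or one of 4v replicates 1 and 2 was left out. Of 6 plastid carriers, *GPT1*, which moves glucose 6-phosphate into plastids, rose from 185 ± 36.4 to 330 ± 38.1 (SD, n = 3 each; log2 difference 0.83, adjusted p = 0.0291). Leaving out 0v replicate 1 or a single 4v library ended that call (adjusted p up to 0.107), as did taking the 4 shallow libraries alone. The list median was 0.07, with 3 of the 6 genes above 0. None passed as lower over all libraries. The groups did not overlap for *TPT*, with means of 6720 in 0v and 4034 in 4v (limma adjusted p = 0.0593). Nor did they for *PGLCT*, with 1485 and 981 (adjusted p = 0.0699). *TPT* passed as lower in 7 alternative fits and *PGLCT* in 2.

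**Figure D5:**
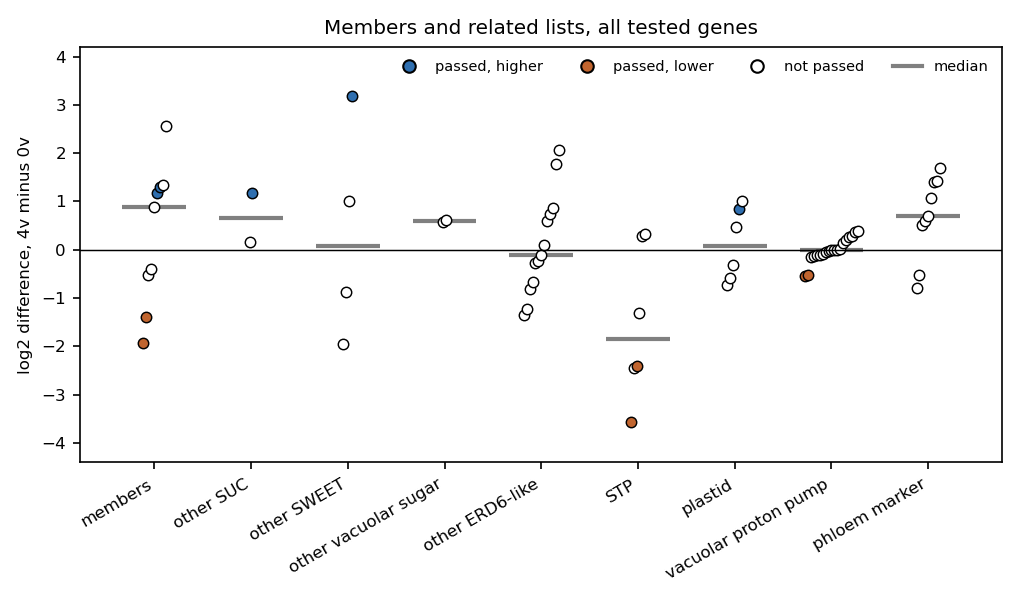
Log2 difference (4v minus 0v) of each tested gene of the members and of 8 related lists, 1 point a gene, blue where it passed as higher, orange as lower and open where it did not pass, with list medians as grey bars. The median of the members is 0.88 and that of the *STP* genes -1.86, while the vacuolar proton pumps lie near 0.

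Seedlings are a mixture of organs, so root and leaf markers were read in the same way. Of 6 root markers tested 1 fell (1 to 4 over the alternative fits), the root aquaporin *TIP2;3*, from 130, 67.8 and 36.6 normalized counts to 3.05, 1.42 and 0, and the list median was -1.10. None rose, although *PHO1*, with means of 156 in 0v and 282 in 4v, passed as higher in 2 alternative fits. The summed level of 9 root markers was 364 to 652 in 0v and 268 to 588 in 4v. Of 5 leaf markers 1 fell (0 to 2 over the alternative fits), the carbonic anhydrase *CA1*, from 8592 ± 3359 to 2125 ± 491 (SD, n = 3 each; limma adjusted p = 0.0140, and 0.0528 without 4v replicate 1). The summed level of the leaf list was 83950 to 199000 in 0v and 88660 to 124300 in 4v, and these ranges overlapped. The part of organ make-up in the differences of the members was not tested.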

How the data were processed

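RNA of 3 non-vernalized and 3 vernalized seedling samples was sequenced from polyadenylated libraries. The authors quantified reads with Kallisto against TAIR10 and deposited, as signal, counts divided by 1 size factor per library (DESeq2); versions are not given in the sources used here. The table also holds 20 columns that carry no sample name and columns of the authors' own comparison (fold changes and p-values), none of which were used. Of 18369 genes, 1 with displaced values was left out. What is called a read here is 1 unit of the whole-number counts recovered from the step of each library. Those counts were assigned by Kallisto from paired reads. Intervals and floors cover sampling between these libraries or counting error only.

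limma 3.58.1 (R 4.3.3; linear model, eBayes with trend) was the main test. edgeR 4.0.16 (quasi-likelihood) on the recovered reads called 946 genes higher and 1202 lower, against 1083 and 1172 in limma, and DESeq2 1.42.0 called 1105 and 1395. Other alternatives were limma-voom, pseudocounts of 1 and 16, no filter or a mean of at least 50, quantile normalization, no trend, sample weights, thinned reads, the 4 shallow libraries alone, depth class as a covariate, a replicate block and leaving out each library. The members and lists were chosen with earlier results of these data known. Named genes are all members, their tandem neighbours, and from each list at most 3 that passed. Further list genes that did not pass (*SUC3*, *SWEET1*, *SWEET2*, *SWEET15*, *VGT1*, *VGT2*, *AVP1*, *AHA3*, *APL*, *SEOR1*, *SEOR2*, *TPT*, *PGLCT*, *PHO1*, AT1G19450, AT4G04750, AT3G05165, *VHA-A*, *VHA-B3*) were named after their values were seen. Coordinates and promoters are from RefSeq TAIR10.1, where 18306 of 18307 matched genes had the coordinates of the deposited table. The promoter of *ERDL6* is not reported here.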

Additional observations from a re-analysis of the deposited data

How the results depend on the processing

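*SUC1*, *ERD6* and *ERDL6* kept their direction and their call in all 20 alternatives, and no alternative turned the direction of any of the 9 members tested. The count of members that rose fell from 2 to 1 with eBayes without trend (*SUC2* adjusted p = 0.0566), and ranged from 1 to 3 when a library was left out. The count that fell stayed at 2. The correlations of same-numbered deviations were 0.07, -0.13 and -0.13. The last 2 each set a deep library against a shallow one, so they cannot show whether replicate numbers pair the libraries. The highest correlation between a 0v and a 4v library was 0.27, for the 2 deep libraries. With the replicate block 1 member rose, as *SUC2* had an adjusted p of 0.0850, and the calls over all genes went to 481 higher and 567 lower. Limma-voom called 2498 and 2318 genes, and leaving out a library gave 260 to 1521 higher and 400 to 1440 lower. The difference in the *SUC1* to *SUC2* ratio ranged from -0.44 to 0.14 when a library was left out. The median of all genes lay between -0.01 and 0.06. With the replicate block *SWEET13* had an adjusted p of 0.0508 and *SUC4* did not pass. Under quantile normalization the proton pump list went from 2 lower to 2 higher (*VHA-A* and *VHA-B3*). Low counts limit *SWEET12*, with 4 reads in 0v replicate 1. *TMT2* had 2 reads in that library but 62 in 0v replicate 2, at similar totals (1785974 and 1645379 reads).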
